A study of Mus musculus with 4 samples.

Results

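Inner and outer granule cell layer of senile mice were compared over 24129 genes of the 30189 that the arrays carried. A gene entered when its probe was well above background on the senile inner array, the senile outer array or both, with the brightest probe kept for each gene name. Of the 24129 genes, 22013 were well above background on both arrays, 742 on the inner array alone and 1374 on the outer array alone. Each side was 1 sample on 1 array, so every difference below is between 2 arrays, without replicate error and without a p-value.

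The samples came from congenic wild-type female mice of the strain C57Bl6J, aged 20 to 24 months in the senile groups and 3 months in the young groups, and nothing in the labels names a transgene or a treatment. Each sample pooled the dorsal dentate gyrus of 8 mice, and whether the inner and the outer pool came from the same animals is not stated. The inner side lies toward the subgranular zone and the outer side toward the molecular layer; both were cut by laser capture microdissection from 20 µm coronal sections of frozen brain. From each pool 0.6 µg of RNA was amplified with a kit for very small samples, labelled with the dye Cy3 and hybridised to a one-colour array, and the young inner and outer arrays are given beside the senile ones as a description.

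The granule cell layer holds the tightly packed cell bodies of the granule neurons, the cells that receive the main cortical input to the hippocampus. Along its inner border lies the subgranular zone, where stem cells that resemble radial glia give rise to dividing progenitors, neuroblasts and finally new granule neurons, a process that declines with age. The inner border also touches the hilus, which contains inhibitory interneurons and mossy cells, while the outer border meets the molecular layer with the granule cell dendrites. A cut that follows either border can carry cells of the neighbouring region, so lists of markers for 13 cell types and 24 pathways were read beside the leading genes. In a pooled tissue sample fewer cells of a type and less RNA per cell cannot be told apart.

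Levels are given as relative signal, the processed intensity of a probe as a multiple of the 75th percentile of all non-control spots of its array. Across the 4 arrays of the series 75.6% to 77.5% of spots were well above background and 0 were saturated. The log2 signals of repeated spots had a median SD between 0.0654 and 0.0703, which measures the array and not the mice. The lowest relative signal counted as well above background lay between 0.0158 and 0.0176. Where a gene was below background on 1 of the arrays its fold is a bound, computed against the higher of that limit and its own signal, and is written "at least".

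All 21 listed markers of mature granule neurons were well above background on both senile arrays, among them Prox1, the transcription factor that sets granule cell identity, with a relative signal of 2.88 inside and 3.86 outside. Calb1, the calcium buffer calbindin of mature granule cells, stood at 5.18 and 6.99. The defining markers were thus present on both sides, but presence alone cannot check the label. Of all 24129 genes compared, 22013 were well above background on both senile arrays. The same held for 28 of 28 compared astrocyte markers, 25 of 25 microglia markers and 32 of 35 interneuron markers.

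At least 2-fold higher signals were found for 1202 genes on the inner array, 4.98% of those compared, and for 1136 on the outer array, 4.71%, so that 51.4% of these calls were on the inner side. The young pair, on 2 other arrays, gave 1794 (7.55%) and 1115 (4.69%) of 23777 genes. The size of a difference depended on how bright the gene was. In the brightest tertile of genes measured on both senile arrays, 84 of 7338 were 2-fold higher inside and 20 outside, and the central 90% of differences lay between -0.58 and 0.54 log2. In the dimmest tertile the counts were 420 and 520, and that range was -1.16 to 1.06. The median over all genes was -0.11. Normexp, a background correction that draws dim signals together, left 315 genes 2-fold higher inside (1.31%) and 109 outside (0.452%), a split of 74.3% inner.

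Other probes of the same gene bear on how far single genes can be read. Some overlap on the genome, as those of Nmb and Mcm3 do, and are then not independent. Of the 1202 genes higher inside, 173 had another probe well above background on both arrays, and the median of those other probes was also higher inside in 91 genes, in 28 of them by at least 2-fold. Of the 1136 higher outside, 119 had such a probe, and their median went the same way in 89 genes, in 26 of them by at least 2-fold. Over all 5206 genes with such probes, 45.8% had other probes higher inside. The share among the inner genes was near that background, while in the brightest tertile 15 of 22 inner genes had other probes higher inside. Where a named gene had other probes above background on both arrays that went the opposite way or differed by much, their median is given beside it.

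**Figure D1:**
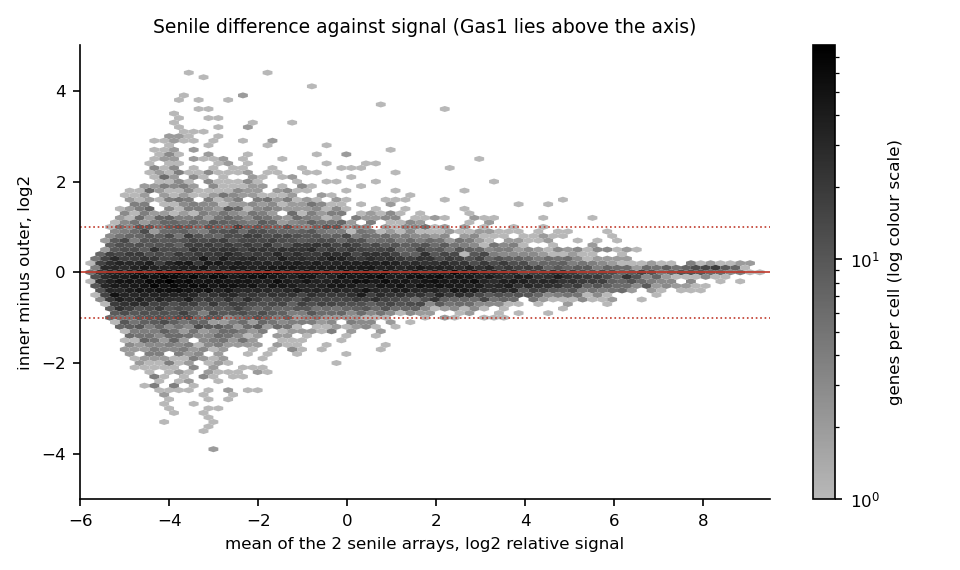
Senile inner minus senile outer difference (log2, vertical axis) against the mean of both senile arrays (log2 relative signal, horizontal axis) for 22013 genes well above background on both; the grey of each cell gives the number of genes on a log scale, and dotted lines mark 2-fold. The spread of differences narrows from the dim genes at the left to the bright genes at the right, and Gas1, at 9.73, lies beyond the axis.

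Genes of inhibitory interneurons were mostly higher on the inner side. Of 35 listed members that could be compared, 20 (57.1%, against 4.98% of all genes) were at least 2-fold higher inside and 2 outside, with a median difference of 1.24. Sst, whose peptide somatostatin marks many hilar interneurons, had a relative signal of 5.91 on the inner and 0.450 on the outer array, 13.1-fold apart. Slc32a1, which loads GABA into vesicles, stood at 10.9 and 2.19, 4.99-fold apart, and its other probe differed by 0.76. Gad2, an enzyme that makes GABA, was 2.34-fold higher inside (33.7 against 14.4), whereas Gad1, the second such enzyme, stood at 7.82 and 7.77. The 2 enzymes for the same product thus gave unequal differences.

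Other interneuron genes with clear inner signals were Cnr1, the cannabinoid receptor of basket cells, at 2.34 against 0.387 (6.03-fold), and the peptide gene Npy, at 3.88 against 1.13 (3.43-fold). Htr3a, a serotonin-gated channel subunit, stood at 0.699 and 0.0742, a 9.43-fold difference. The receptor tyrosine kinase gene Kit gave 0.690 and 0.0738, a 9.34-fold difference. Vip, Crh and Tac1, 3 further peptide genes of this list, were 3.93-fold, 4.25-fold and 3.47-fold higher inside. Developmental transcription factors of the lineage were also higher, with Dlx2 at 0.711 against 0.229 and Maf at 1.85 against 0.739.

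The 2 members higher on the outer side were dim. Sox6, a transcription factor, stood at 0.0312 and 0.0686, and Chrna2, a nicotinic receptor subunit of some hilar interneurons, at 0.0219 and 0.0475, the inner value not well above background (at least 2.17-fold). Lhx6, a transcription factor of interneurons from the medial ganglionic eminence, gave 279 and 256 by its brightest probe but a difference of 3.03 by its other, dimmer one. Calb2, the calretinin gene, was below background on both arrays.

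In the young pair the list had a median of 1.16, and 22 of 35 members were 2-fold higher inside, against 7.55% of all genes of that pair. At both ages 17 members were so. Pvalb, the parvalbumin gene of fast-spiking cells, went 1.24 in the senile and -0.92 in the young pair. The difference between the pairs was not tested. With normexp background the senile median was 0.74, with 15 members 2-fold higher inside and 0 outside.

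**Figure D2:**
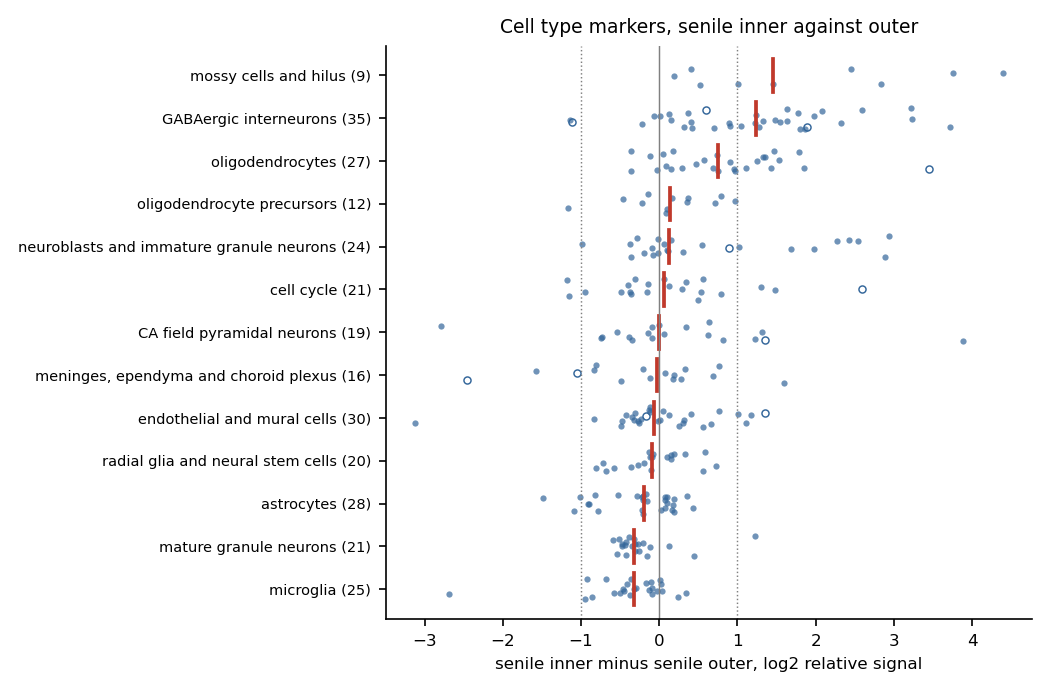
Senile inner minus senile outer difference (log2 relative signal) of each compared member of the 13 cell type lists, with the number of members in brackets, the list median as a red bar and dotted lines at 2-fold; filled points were well above background on both arrays and open points on 1, where the difference is a bound. Mossy cell and hilus, interneuron and oligodendrocyte markers extend to the right, while mature granule neuron and microglia markers lie mostly left of 0.

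Mossy cells are the excitatory neurons of the hilus. All 9 compared genes of the mossy cell and hilus list were higher inside, against 40.1% of all genes, with a median of 1.46. Of these, 6 (66.7%, against 4.98% of all genes) were so by at least 2-fold. The greatest difference belonged to Cyp26b1, an enzyme that breaks down retinoic acid, with 1.32 inside and 0.0631 outside, 21.0-fold. Rgs12, a regulator of G protein signalling, stood at 0.574 and 0.0423 (13.6-fold), and its other probe above background on both arrays differed by 0.84. Nmb, the peptide neuromedin B, gave 1.84 and 0.258 (7.13-fold), and its other probe differed by 2.68. The 2 Nmb probes overlap on the genome, so their agreement is not independent support. Csf2rb2, a cytokine receptor subunit with a near-identical relative, was 2.01-fold higher inside. Adcyap1, the peptide PACAP, and Drd2, a dopamine receptor gene of mossy cells, were 5.47-fold and 2.75-fold higher inside. In the young pair the list median was 2.49 and the Drd2 difference 4.01.

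The markers of CA field pyramidal neurons, the principal cells of the adjoining hippocampal fields, had a median close to 0. Of 19 members 4 were 2-fold higher inside (21.1%, against 4.98% of all genes) and 1 outside. Neurod6, a transcription factor of these neurons, was 14.8-fold higher inside (0.712 against 0.0480), and Bok, of the Bcl-2 family, 2.48-fold (3.45 against 1.39). Ccn3, a matricellular protein gene, stood at 0.111 and 0.0475, and Iyd at 0.0584 against an outer value below background (at least 2.55-fold). The young median of this list was 0.81.

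Mature granule neuron genes were slightly lower on the inner side. Of 21 members 18 (85.7%) had a lower inner value, against 59.9% of all genes, the median was -0.32, and none was 2-fold higher outside, against the median of -0.11 over all genes. The widest differences were -0.59 for Lct, the lactase gene (3.32 inside, 5.0 outside), -0.55 for the desmosomal gene Dsp (6.31 and 9.22, with 0.14 for its other probe) and -0.51 for the guidance gene Sema5a (3.68 and 5.26). C1ql2, a synaptic organiser secreted by mossy fibre terminals, exceeded 2-fold on the inner side with 2.78 inside and 1.19 outside, a 2.33-fold difference that the young pair did not show (-0.38). The young median was -0.38. With normexp the senile median was -0.33.

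Messages that are carried into dendrites had a median of -0.07 over 29 genes. Map2, the dendritic microtubule protein, stood at 23 inside and 41.0 outside, a difference of -0.83, and its 2 other probes differed by -0.81 and -0.57. Camk2a, the alpha subunit of calcium/calmodulin kinase II, gave 48.2 and 78.6 (-0.71), with 0.49 for its other probe, and Ddn, the gene of dendrin, 1.45 and 2.37 (-0.71). The brightest probe of Shank2, a postsynaptic scaffold gene, gave -0.77 and its other probe 0.84. Nrgn, the calmodulin-binding neurogranin, and Grin1, the obligatory NMDA receptor subunit, went the other way, with 14.0 against 6.55 (2.13-fold) and 0.388 against 0.187 (2.08-fold). The young differences of these latter genes were -0.24 and 0.10.

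Markers of the neurogenic lineage are given by stage, and whether the stages differed was not tested. The list of radial glia and stem cells showed no member at 2-fold in either direction among 20, with a median of -0.10. Nes, the intermediate filament nestin, stood at 0.0285 inside and 0.0256 outside, close to the background limit on both arrays. Sox2, a stem cell transcription factor, gave 0.336 and 0.228 (0.56), and Hopx, a marker of quiescent stem cells, 2.07 and 1.37 (0.59). Hes5, a Notch target, had the greatest inner excess of this list with 4.52 against 2.74 (0.72), and Id4, which holds stem cells in quiescence, the greatest outer excess with 0.417 against 0.731 (-0.81). In the young pair 7 of the same list were 2-fold higher inside, against 7.55% of all genes of that pair. The young median was 0.70, with Nes, the same probe, at 1.40 and Vim at 1.17. Fabp7, the lipid-binding protein of radial glia, gave 0.33 in the senile and 0.79 in the young pair.

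Cell cycle genes, which mark dividing progenitors, had a median of 0.06. Of 21 members 3 (14.3%, against 4.98% of all genes) were 2-fold higher inside and 2 (9.52%, against 4.71%) outside. Mki67, present in all active phases of the cycle, stood at 0.0896 inside and 0.0705 outside in the senile pair (0.35), against 1.32 and 0.175 on the young ones (2.92); its other probe gave a senile difference of 1.06. Birc5, the mitotic gene survivin, gave a senile difference of 0.54 and a young one of 4.17, but its 2 other probes had a senile median of -0.63. Ccna2, cyclin A2, was higher inside in both pairs (1.30 and 1.94). Tpx2, a spindle assembly factor, was at least 6.03-fold higher inside, and Tyms, the enzyme of thymidylate synthesis, 2.78-fold. The replication licensing genes Mcm2 and Mcm3 were 2.25-fold and 2.22-fold higher outside. For Mcm3 the second probe, which overlaps the first on the genome, gave -1.19. With normexp 0 members of this list were 2-fold in either direction.

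Genes of neuroblasts and immature granule neurons divided into those that differed and those that did not. Of 24 compared, 8 (33.3%, against 4.98% of all genes) were 2-fold higher inside and none outside. All 8 were 2-fold higher inside in the young pair as well, where 11 of the 24 were, against 7.55% of all genes of that pair. Eomes, the transcription factor Tbr2 of dividing progenitors, stood at 0.146 and 0.0251 (5.80-fold); its other probe was below background on both senile arrays. Stmn2, a microtubule regulator of growing axons, gave 3.18 and 0.589 (5.40-fold), and Gap43, a growth cone protein, 2.87 and 0.590 (4.85-fold). Sema3c, a secreted guidance cue, was 7.42-fold higher inside (0.791 against 0.107), and Cd24a, a surface glycoprotein of neuroblasts, 7.68-fold (0.195 against 0.0254). Cxcr4, a chemokine receptor of migrating cells, Nhlh2, a transcription factor, and Fxyd7, a sodium pump regulator, were 3.94-fold, 3.22-fold and 2.04-fold higher inside.

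Dcx, the doublecortin gene that is the usual marker of neuroblasts, stood at 0.641 inside and 0.595 outside in the senile pair, a difference of 0.11, against 1.44 in the young pair. Sox11 and Sox4, transcription factors of immature neurons, were at -0.37 and -0.29 in the senile and at 0.92 and 0.88 in the young pair, while the 2 other probes of Sox4 had a senile median of 0.30. Neurod1, a differentiation factor of granule neurons, gave senile signals of 1.21 and 1.22, with a difference of 0.27 for its other probe. Several members that were higher inside, such as Stmn2, Gap43 and Cxcr4, are also made by mature neurons or other cells. The interneuron markers, summed over the list, stood at 409 inside and 318 outside, of which Lhx6 gave 279 and 256, and their part in these values was not tested.

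**Figure D3:**
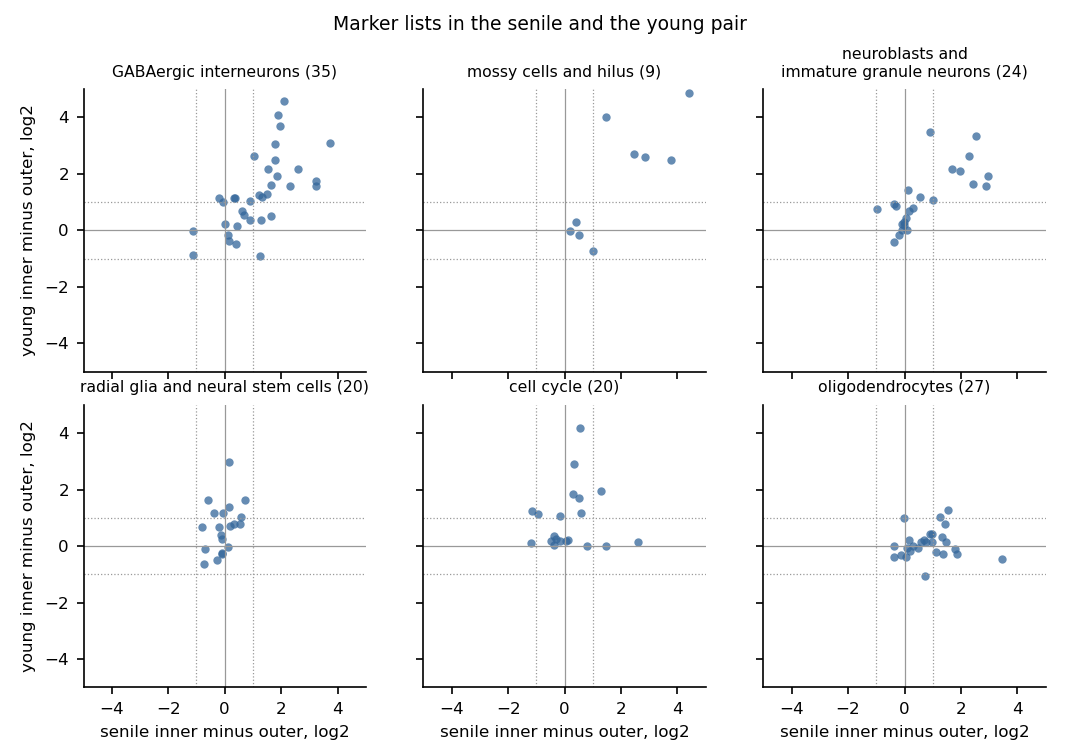
Inner minus outer difference (log2 relative signal) of each list member in the senile pair (horizontal axis) and the young pair (vertical axis) for 6 marker lists, with dotted lines at 2-fold and the number of genes with both values in brackets. Of the interneuron members 17 and of the mossy cell members 5 lie beyond the upper and right dotted lines together; 7 radial glia and 9 cell cycle members lie beyond the upper line, and 10 oligodendrocyte members beyond the right line.

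Myelin genes of oligodendrocytes, the cells that wrap axons, were higher on the inner side of the senile layer. Of 27 members 10 (37.0%, against 4.98% of all genes) were 2-fold higher inside and none outside, and the median was 0.75. Mag, an adhesion molecule of the innermost myelin layer, stood at 1.20 inside and 0.416 outside (2.88-fold), and Cnp, an enzyme of myelin cytoplasm, 0.637 and 0.230 (2.77-fold). Mobp was 2.69-fold higher inside (0.956 against 0.355), and its 2 other probes differed by 0.89 and 0.47. Mog, of the outermost myelin surface, Opalin, a myelin membrane protein, and Nkx6-2, a transcription factor of the lineage, were 2.50-fold, 2.38-fold and 2.56-fold higher.

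Fa2h, which hydroxylates myelin lipids, stood at 0.295 and 0.0819 (3.60-fold), and Hapln2, a link protein at nodes of Ranvier, at 0.149 and 0.0432 (3.45-fold). Aspa, which breaks down N-acetylaspartate, was at least 10.9-fold higher inside and was below background outside. For 2 bright members the probes disagreed. Mbp, myelin basic protein, stood at 7.08 and 9.08 by its brightest probe (-0.36), while its 2 other probes had a median of 1.69, and Ermn stood at 3.76 and 4.09 (-0.12) with 0.58 for its other probe. The lineage factors gave 0.90 for Sox10, 0.18 for Olig1 and -0.37 for Olig2.

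In the young pair the oligodendrocyte median was 0.01, and 2 of 27 members were 2-fold higher inside, against 7.55% of all genes of that pair. These 2, Mag and Opalin, were so at both ages. Mog gave 0.32 there and Cnp 0.16, and the difference between the pairs was not tested. Precursors of oligodendrocytes showed no such excess, with a median of 0.13 over 12 genes, Pdgfra at 0.79 and Neu4, a sialidase, 2.23-fold higher outside. Among genes of cholesterol and myelin lipid synthesis 4 of 26 (15.4%, against 4.98% of all genes) were 2-fold higher inside, and the median was 0.06. The 4 were Fa2h, Tm7sf2 (2.73-fold, with -0.13 for its other probe), Lss (at least 3.01-fold) and Mvd (2.02-fold). With normexp the oligodendrocyte median was 0.54, with 5 members 2-fold higher inside.

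Astrocytes, the glia that take up transmitter and ions, differed little between the sides, with a median of -0.19 over 28 genes. None was 2-fold higher inside and 3 were outside. Aqp4, the water channel of their endfeet, stood at 0.554 inside and 1.55 outside (2.80-fold), and its other probe differed by -0.57. S100b, a calcium-binding protein, gave 5.82 and 11.7 (2.01-fold). Slc7a10, an amino acid transporter, was dim at 0.0486 and 0.103. Slc4a4, a bicarbonate cotransporter, differed by -0.91, and its 2 other probes by -0.94 and -0.68. The probe with -0.94 overlaps the brightest one on the genome. Gfap, the astrocyte filament shared with radial glia, was at 3.13 and 2.91 by its brightest probe, but its 2 other probes had a median of -1.13, and the glutamate transporter Slc1a2 at 16.3 and 15.2.

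Microglia are the resident immune cells. Of 25 markers 20 had a lower inner value, 80.0% against 59.9% of all genes, and the median was -0.33. Laptm5, a lysosomal membrane protein of haematopoietic cells, was the only one at 2-fold, with 0.0429 inside and 0.277 outside (6.46-fold), while its other probe differed by -0.34. Slc2a5, a fructose transporter, stood at 0.115 and 0.218 (-0.92), the purinergic receptor P2ry12 at 0.154 and 0.280 (-0.86), and Cx3cr1, the fractalkine receptor, at 9.64 and 12.3 (-0.35), with 0.87 for its other probe. The young median was 0.03.

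Genes that microglia raise in ageing and disease had a median of 0.15 over 19 members. Itgax, the integrin CD11c, was at least 3.46-fold higher inside, and Ccl6, a chemokine, at least 2.73-fold higher outside, each from a dim signal. Gpnmb, a lysosomal glycoprotein, gave -0.74, Lpl, lipoprotein lipase, 0.73 (1.57 for its other probe), and Apoe 23 and 21.9. Among complement and MHC genes, 3 of 26 (11.5%, against 4.98% of all genes) were 2-fold higher inside. These were C4b, a complement component whose probe may also bind the near-identical C4a (0.373 against 0.153, 2.43-fold), Cd59a, which blocks the membrane attack complex (0.977 against 0.330, 2.96-fold), and the class Ib molecule H2-M3 (0.159 against 0.0466, 3.41-fold). Cfb, complement factor B, was 2.70-fold higher outside, and the C1q chains C1qa, C1qb and C1qc lay between -0.10 and -0.03.

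Vessel markers of endothelial and mural cells had a median of -0.07. Of 30 members 4 (13.3%, against 4.98% of all genes) were 2-fold higher inside and 1 (3.33%, against 4.71%) outside. Ptprb, a phosphatase of vascular endothelium, stood at 0.0372 inside and 0.324 outside (8.69-fold), and the same probe was also higher outside in the young pair (-1.85). A second probe went the other way there, at 0.183 inside and 0.0112, below background, outside. In the senile pair that second probe gave 0.00772, below background, inside and 0.0228 outside. Abcb1a, the drug efflux pump of the blood-brain barrier, gave 0.390 and 0.174 (2.25-fold), and Itm2a 0.838 and 0.389 (2.15-fold). Tie1, an endothelial receptor kinase, was at least 2.56-fold higher inside, Pdgfrb, the receptor of pericytes, was at 0.355 and 0.177, and the tight junction gene Cldn5 at 0.32. Vegfa, the main vascular growth factor, was 2.27-fold higher outside (0.656 against 1.49), and its other probe differed by -0.38. Markers of meninges, ependyma and choroid plexus had a median of -0.02. Of 16 members 1 (6.25%, against 4.98% of all genes) was 2-fold higher inside and 3 (18.75%, against 4.71%) outside. These were the water channel gene Aqp1 (3.03-fold) and, outside, the transporter gene Slc22a6 (2.97-fold), Foxj1, the master factor of motile cilia (at least 5.49-fold), and Dcn, decorin of the meninges (at least 2.07-fold). Ttr, the defining choroid plexus gene, was below background on both arrays.

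Peptide genes, whose products are released from dense-core vesicles, were led by those of interneurons and mossy cells. Of 23 neuropeptide and neurotrophic factor genes 8 (34.8%, against 4.98% of all genes) were 2-fold higher inside and none outside (against 4.71%). The median was 0.42, or 0.030 when dim members were kept, and the summed relative signal was 185 inside and 199.9 outside. These 8 were Sst, Nmb, Adcyap1, Crh, Vip, Tac1, Npy and Pthlh, and all but Pthlh were 2-fold higher inside in the young pair too. Over the list 11 of 23 were so in that pair, against 7.55% of all genes. Among peptides of the granule cells themselves, Pdyn, prodynorphin, stood at 29.6 inside and 45.1 outside (-0.61) by its brightest probe but gave 0.67 by its other one. Bdnf, the neurotrophin of mossy fibres, stood at 1.82 and 2.60 (-0.51). The granin genes Scg2 (30.3 against 40.4, -0.42) and Chgb (61.3 against 71.5, -0.22) were also under 2-fold, and Penk, proenkephalin, went -0.29 in the senile but 2.76 in the young pair. Of the 8, Sst, Crh, Vip, Tac1 and Npy are also interneuron markers, 20 of 35 of which were higher inside, and their part in these values was not tested.

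The cyclic AMP response element, TGACGTCA, binds the activity-regulated factor CREB, and the somatostatin promoter is its textbook example. It was searched on both strands in RefSeq promoters of build GRCm38.p6, 250 bases before to 50 after each gene start. It lay in 4 of 21 peptide promoters (19.0%) and in 2.03% of all 27025. The 4 genes did not share a direction: Sst was 13.1-fold higher inside, while Scg2, Chgb and Cartpt had differences of -0.42, -0.22 and -0.71. The stretches around the element are shown to set side by side the gene that led the list and those that did not, with the element in capitals. They lie at chr16:23890865-23890912 (minus strand), chr1:79440067-79440114 (minus), chr2:132781550-132781597 (plus) and chr13:99900768-99900815 (minus).
Sst: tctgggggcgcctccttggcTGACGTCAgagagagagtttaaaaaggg
Scg2: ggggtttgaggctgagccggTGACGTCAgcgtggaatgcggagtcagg
Chgb: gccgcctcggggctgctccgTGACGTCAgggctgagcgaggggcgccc
Cartpt: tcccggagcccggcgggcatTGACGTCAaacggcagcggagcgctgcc
A match describes the letters of this window and is no evidence of a site in use.

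Of 21 receptors for these peptides 1 was 2-fold higher inside and 1 outside, 4.76% each, near the 4.98% and 4.71% of all genes. The inner one was Cckbr, a cholecystokinin receptor at 0.104 and 0.0465, and the outer one Trhr at 0.0234 and 0.0499. A lower inner value was found for 16 (76.2%), against 59.9% of all genes, with a median of -0.11, as over all genes. Npy1r, a neuropeptide Y receptor of granule cells, stood at 7.36 and 9.33 (-0.34).

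Receptors of the monoamine, histamine and acetylcholine systems had a median of 0.19. Of 31 members 5 (16.1%, against 4.98% of all genes) were 2-fold higher inside and 3 (9.68%, against 4.71%) outside. Beside Htr3a and Drd2, the inner genes were Adra2a, an inhibitory adrenergic receptor (1.38 against 0.344, 4.02-fold), Htr7 (0.731 against 0.245, 2.98-fold) and Htr2a (0.449 against 0.161, 2.79-fold), both serotonin receptors. The dopamine receptors divided, since Drd1 stood at 0.114 inside and 0.512 outside (4.49-fold higher outside), and Drd4 was at least 4.75-fold higher outside. Drd5, of the same receptor class as Drd1, was nearly equal at 1.43 and 1.58.

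GABA receptor genes had a median of -0.31, with 13 of 17 (76.5%) lower inside, against 59.9% of all genes. The subunits Gabre (0.0306 inside, 0.0559 outside, -0.87, with 0.15 for its other probe) and Gabrb1 (0.548 and 0.766, -0.48) were lower there. Gabra3, another subunit, had 7.94 inside and 2.71 outside (2.93-fold), although its other probe differed by -0.14. Gabrd, of the extrasynaptic receptors of granule cells, stood at 0.833 and 1.03.

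Glutamate receptor genes had a median of 0.12 over 35 members. Neto2, an auxiliary subunit of kainate receptors, was higher inside (1.36 against 0.136, 3.32), its other probe gave 1.66, and the young pair 3.4. Cacng8, an auxiliary subunit of AMPA receptors, gave 0.95, and the AMPA subunits Gria1 and Gria2 -0.30 and -0.08, the latter with -0.63 for its other probe. Grm8, a presynaptic metabotropic receptor, was 2.38-fold higher outside.

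Among potassium channels, which set firing patterns, 10 of 53 (18.9%, against 4.98% of all genes) were 2-fold higher inside and 2 outside. The median was 0.03. Kcnq3, a subunit of the M-current, stood at 1.11 inside and 0.230 outside (4.82-fold), and Kcns3, a modulatory subunit, at 1.91 and 0.400 (4.79-fold). Kcnip1, which binds Kv4 channels, gave 1.10 and 0.234 (4.70-fold), and Kcnc2, of the fast Kv3 class, 1.11 and 0.358 (3.09-fold). Kcns1, Kcnk3, Kcnd1, Kcnab2, Kcna3 and Kcna2 were higher inside by 2.08-fold to 3.96-fold, and of these Kcna3 had a young difference of -1.99. The 2 other probes of Kcnd1 differed by -0.06 and 0.38. Kcnn3, a small-conductance calcium-activated channel, and Kcnh7 were 2.85-fold and 3.09-fold higher outside, with -0.44 for the other probe of Kcnn3. Of the inner genes, Kcns3 and Kcnd1 were also 2-fold higher inside in the young pair, and Kcnq3 and Kcnip1 gave 0.38 and -0.33 there. The other probes of Kcnd1 gave 0.14 and 1.58 in the young pair. Interneuron markers moved in the same direction (20 of 35 at 2-fold), Kcnc2 is itself 1 of them, and their part in the channel values was not tested.

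Presynaptic vesicle genes were higher inside in 30 of 39 (76.9%, against 40.1% of all genes), with a median of 0.23. By at least 2-fold 8 were higher inside (20.5%, against 4.98% of all genes) and none outside (against 4.71%). Sv2b, a vesicle glycoprotein of excitatory terminals, stood at 0.377 inside and 0.0490 outside (7.69-fold), and Rims3, of the active zone, at 1.78 and 0.435 (4.10-fold), with 0.33 for its other probe. The vesicular glutamate transporters Slc17a7 (7.34 against 3.18, 2.31-fold) and Slc17a6 (0.103 against 0.0281, 3.68-fold) were higher inside, as were the small GTPase gene Rab3b (3.38-fold), Rims2 (2.59-fold), the calcium sensor gene Syt7 (2.21-fold, with -0.14 for its other probe) and Slc32a1 above. Bright general genes of the vesicle differed little, Snap25 with 179 and 173 and Syp with 105 and 93.2. The summed signal of the list was 988 inside and 910.0 outside. Interneuron markers (20 of 35 at 2-fold, Slc32a1 among them) and mossy cell markers (6 of 9) were higher on the same side, and their part in the vesicle values was not tested.

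**Figure D4:**
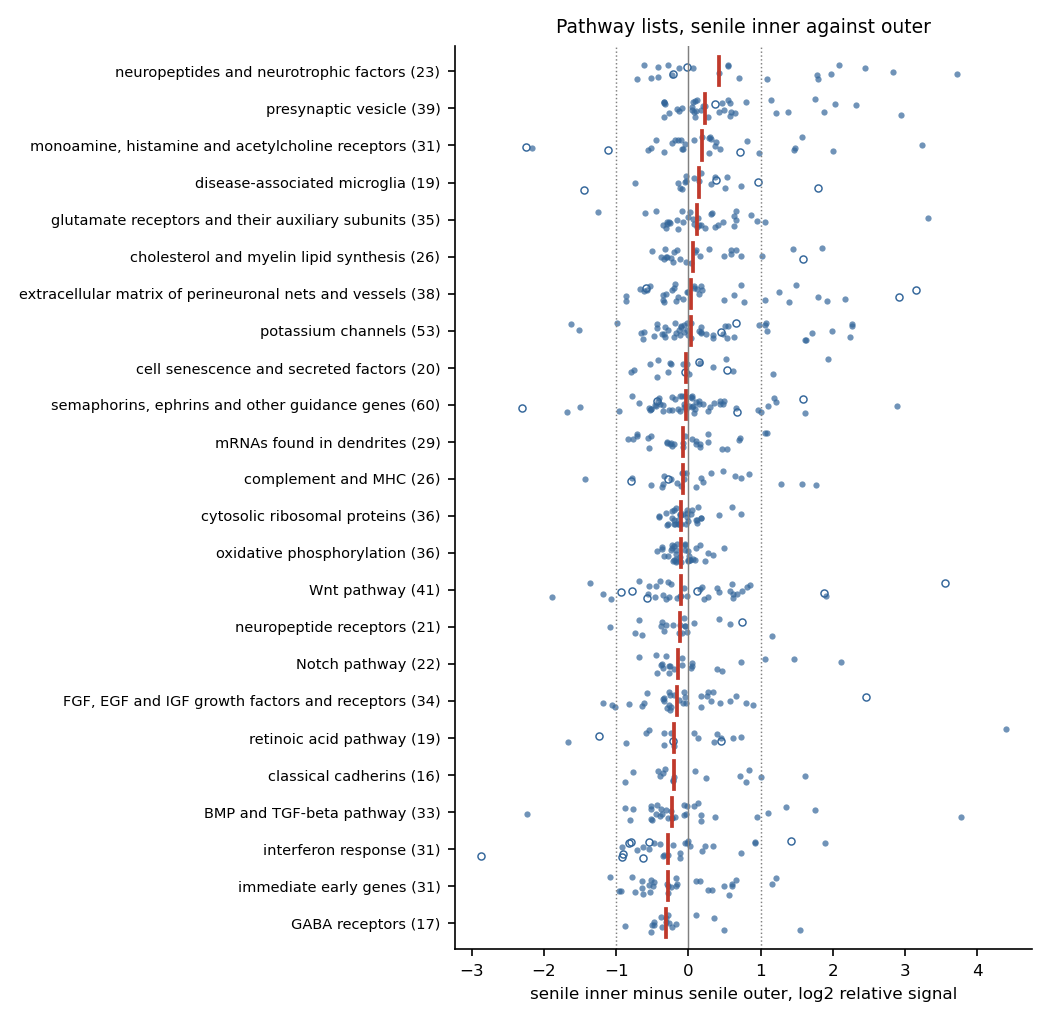
Senile inner minus senile outer difference (log2 relative signal) of each compared member of the 24 pathway lists, with member numbers in brackets, list medians as red bars and dotted lines at 2-fold; open points were well above background on 1 array, where the difference is a bound. Neuropeptides have a median of 0.42 and GABA receptors of -0.31, while ribosomal and oxidative phosphorylation genes stay within 1 log2 unit of 0.

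In the retinoic acid pathway 1 of 19 members (5.26%, near the 4.98% of all genes) was 2-fold higher inside and 2 (10.5%, against 4.71%) outside. Cyp26b1, which degrades the ligand, was 21.0-fold higher inside, whereas Aldh1a1, which makes it, had 0.969 inside and 3.09 outside (3.18-fold higher outside). Rarg, a receptor, was at least 2.37-fold higher outside. In the young pair Cyp26b1 and Aldh1a1 differed by 4.87 and -0.89. The median of the list was -0.20, and it was 0.014 with normexp and 0.018 with quantile normalization.

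Of 33 genes of the BMP and TGF-beta pathway, 4 (12.1%, against 4.98% of all genes) were 2-fold higher inside and 1 outside. A lower inner value was found for 23 (69.7%), against 59.9% of all genes. The ligand gene Bmp7 stood at 0.376 inside and 0.0276 outside (13.6-fold), and Bmp6, a second ligand, at 0.282 and 0.111 (2.55-fold). Nog, the secreted inhibitor noggin that binds such ligands, was 3.37-fold higher inside (0.393 against 0.117). Smad1, a BMP signal transducer, was 2.15-fold higher (3.89 against 1.81), but its 2 other probes differed by -0.09 and 0.06. The receptor gene Tgfbr2 gave 0.0547 and 0.257 (4.70-fold higher outside), with -0.27 for its other probe. The target genes Id1, Id2 and Id3 lay at 0.14, -0.19 and 0.38.

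Wnt genes had 3 of 41 members 2-fold higher inside (7.32%) and 4 outside (9.76%), against 4.98% and 4.71% of all genes. Inside these were Wnt5b (0.957 against 0.257, 3.73-fold) and, as bounds, Rspo1 and Rspo2, secreted enhancers of the pathway, at least 11.7-fold and 3.66-fold. Outside they were the receptor genes Fzd8 (3.68-fold) and Fzd6 (2.26-fold), the ligand gene Wnt10b (2.57-fold) and the third R-spondin, Rspo3 (0.569 against 1.20, 2.11-fold). The pathway target Axin2 stood at 2.06 and 2.64 (-0.36). In the Notch list, 3 of 22 (13.6%, against 4.98% of all genes) were 2-fold higher inside. The 3 were the ligand gene Jag2 (0.112 against 0.0259, 4.31-fold), the glycosyltransferase gene Lfng (1.43 against 0.517, 2.77-fold) and Dlk1 (2.08-fold). The receptors Notch1 and Notch2 gave -0.38 and -0.19, the former with 0.10 for its other probe.

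The list of FGF, EGF, IGF and other growth factors and receptors had 3 of 34 members 2-fold higher outside (8.82%, against 4.71% of all genes). They were Vegfa, Pdgfc (2.07-fold) and Fgf5 (7.62 against 15.4, 2.03-fold). Inside was 1 (2.94%, against 4.98%), Erbb3, a neuregulin receptor of glia, at least 5.47-fold. Guidance genes had 7 of 60 2-fold higher inside (11.7%, against 4.98% of all genes). Beside Sema3c these were the ephrin gene Efna1 (1.44 against 0.470, 3.07-fold), Sema4g (2.32-fold), Slit1 (0.646 against 0.283, 2.28-fold), Slit3 (2.0-fold), Ntng2 (2.14-fold) and, as a bound, Sema3e (at least 3.00-fold). Outside were 3, 5.0% against 4.71% of all genes. They were the repellent gene Sema3a (0.0596 against 0.168, 2.83-fold), with -1.84 for its other probe, the receptor gene Plxna3 (3.21-fold) and Sema3d (at least 4.95-fold). Among cadherins, Cdh19 (3.05-fold) and Cdh7 (2.01-fold) were higher inside, but Cdh7 turned to -1.02 in the mean of its probes.

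Matrix genes of perineuronal nets and vessels had 9 of 38 members (23.7%, against 4.98% of all genes) 2-fold higher inside and none outside. Timp2, an inhibitor of matrix proteases, stood at 0.706 inside and 0.187 outside (3.77-fold), and its other probe gave 1.75. A second inhibitor, Timp3, gave 0.416 and 0.158 (2.63-fold), and Reln, the large secreted protein of some interneurons, 0.129 and 0.0460 (2.80-fold). Lama4, a laminin chain of vessels, was 4.49-fold higher inside, Col25a1 2.38-fold, Adamts4, a protease that cleaves aggrecan, 2.09-fold (with -0.79 for its other probe), and Col18a1 and Nid1 at least 8.86-fold and 7.53-fold. The same probe of Nid1 gave -1.69 in the young pair. That of Col18a1 was below background on both young arrays, and its other probe on all 4 arrays. The 3 other probes of Col25a1 differed by -0.05, -0.01 and 0.55. The net proteoglycan Acan gave 0.141 and 0.180 (-0.35).

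Immediate early genes, which respond to neuronal firing within minutes, had a median of -0.28 with 20 of 31 (64.5%) lower inside, near the 59.9% of all genes. Fosl2 stood at 17.9 inside and 34.0 outside (-0.93, with 1.49 for its other probe), Arc, a synaptic capsid-like protein, at 3.19 and 4.68 (-0.55), and Fos at 0.327 and 0.512 (-0.65). Egr3, a zinc finger factor, was the opposite case with 2.04 and 0.878 (2.33-fold higher inside), as was the phosphatase gene Dusp4 (2.23-fold). Nr4a3 was 2.13-fold higher outside. The young median was 0.03.

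Interferon response genes were mostly dim, and 23 of 31 compared members were above background on both arrays. Ifih1, a sensor of double-stranded RNA, was 3.71-fold higher inside (0.0833 against 0.0225) and Dhx58, of the same family, at least 2.68-fold. Gbp3, a guanylate-binding GTPase, was at least 7.29-fold higher outside. The core of the interferon-stimulated response element, GAAANNGAA, was found on either strand in 16 of 27 promoters of the list (59.3%), against 9.76% of all promoters of the same table. It was present in Ifih1 and Gbp3, which differed in opposite directions, and their stretches are shown for that reason, at chr2:62646339-62646387 (minus strand) and chr3:142559980-142560034 (plus strand). The capitals mark the element read on the opposite strand, with 2 overlapping matches in Gbp3.
Ifih1: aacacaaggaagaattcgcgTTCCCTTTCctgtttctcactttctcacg
Gbp3: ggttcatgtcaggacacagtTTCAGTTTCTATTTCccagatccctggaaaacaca
Of the genes tied to cell senescence, Igfbp3, a binding protein of insulin-like growth factors, and Cdkn1a, the cell cycle inhibitor p21, were 3.82-fold and 2.26-fold higher inside, the latter with -0.28 and -0.50 for its 2 other probes.

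Outside the lists, the largest single difference was that of Gas1, a membrane protein that arrests growth and binds hedgehog ligands, with relative signals of 48.6 inside and 0.0572 outside (849.9-fold). The young values of the same probe (mm9 chr13:60278243-60278302) were 0.0515 and 0.0374, so a high value was seen on 1 of the 4 arrays. Its other 2 probes did not share it, at 0.717 against 0.553 and at 0.0757 against 0.150. Prkcd, protein kinase C delta, stood at 2.37 inside and 0.140 outside (16.9-fold; mm9 chr14:31411938-31411997), and its other probe gave 2.86. In the young pair Prkcd was nearly equal, at 1.78 and 1.99, so the senile outer array held the low value. Ldb2, a cofactor of LIM transcription factors, was 20.6-fold higher inside (0.372 against 0.0181; mm9 chr5:44863390-44863449) and likewise higher in the young pair (5.38).

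Further genes with large inner excess were Gprin3 (0.216 against 0.0199, 10.9-fold), which interacts with G proteins, and Kctd8 (0.411 against 0.0383, 10.74-fold), an auxiliary subunit of GABA-B receptors, both also 2-fold higher inside in the young pair. Frrs1, a ferric reductase, and Npepl1, a peptidase, gave 0.761 against 0.0501 and 0.361 against 0.0299. Tex21, Ddx11, a DNA helicase, and Nsun6, an RNA methyltransferase, were 14.4-fold, 10.4-fold and 10.2-fold higher inside. The same probes of Tex21 and Ddx11 were below background on both young arrays. Another Tex21 probe stood at 0.223 on the young outer array and was below background on the other arrays. Nsun6 gave -0.12 in the young pair, and its other probe above background on both senile arrays gave 0.18. Of the 15 genes with the largest inner excess, 8 were 2-fold higher inside and 2 were 2-fold lower inside in the young pair. Over all genes of that pair 7.55% were 2-fold higher inside and 4.69% outside. All 15 stayed at 2-fold with normexp.

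The 15 genes with the largest outer excess were dimmer, 14 of them in the dimmest tertile. In the young pair 2 were 2-fold higher outside and 4 were 2-fold higher inside, against 4.69% and 7.55% of all genes of that pair. Cd93, a receptor of endothelial and myeloid cells, stood at 0.0314 inside and 0.457 outside (14.6-fold), and Slc25a34, of the mitochondrial carriers, at 0.0183 and 0.182 (9.96-fold), with a young difference of -2.24. Ppp2r1b, a scaffold subunit of protein phosphatase 2A, gave 0.0377 and 0.400 (10.6-fold), and Zfp36, which destabilises AU-rich messages, 0.0469 and 0.364 (7.76-fold). The transcription factor genes Msx2 and Tbx1 were 7.89-fold and 6.38-fold higher outside. Ccdc7b, Oaz3, Anks3, Nek8, Sinhcaf and Rfx8 were higher outside by 6.30-fold to 11.6-fold. With normexp 9 of the 15 stayed at 2-fold and the others came down to between -0.77 and -0.92.

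**Figure D5:**
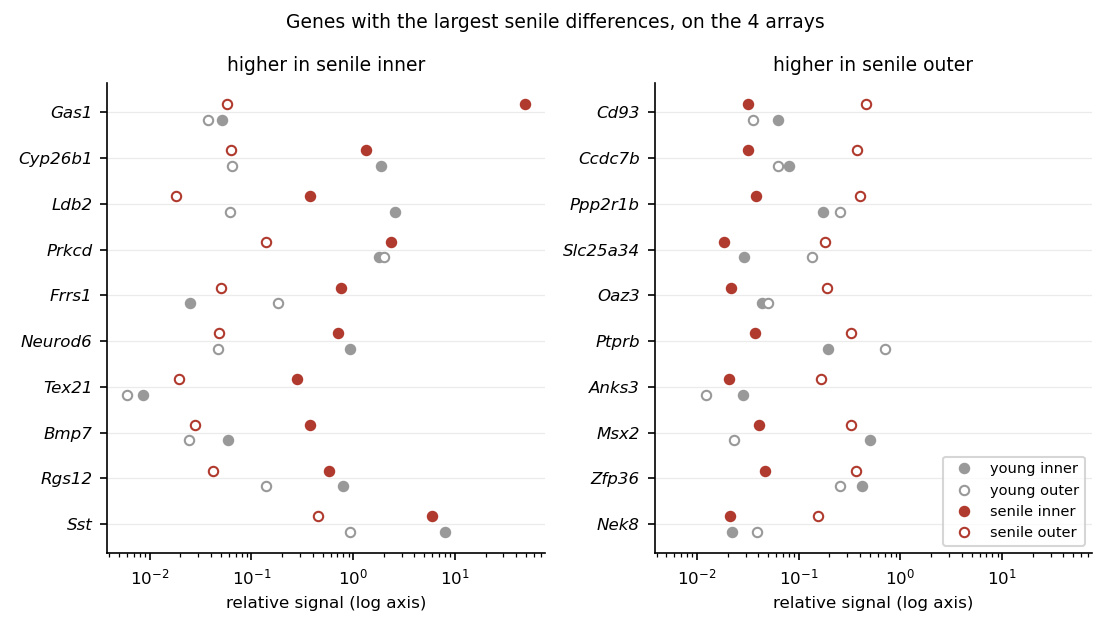
Relative signal (log axis) on the 4 arrays of the 10 genes with the largest inner excess (left) and the 10 with the largest outer excess (right) in the senile pair, 1 array per symbol; filled symbols are inner and open symbols outer samples, red senile and grey young. The senile inner value of Gas1 (48.6) stands far from its other 3 values, and the outer genes lie below a relative signal of 0.5 on both senile arrays.

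Among the brightest tertile, where differences were smallest in general, the inner genes beside those already named were Rmrp, the RNA of a ribonucleoprotein enzyme (3.55 against 0.662, 5.36-fold), Tnfaip8l3, a lipid transfer protein (4.74 against 1.02, 4.66-fold), and Diras1, a small GTPase (19.1 against 4.94, 3.87-fold). Plcxd2 (3.85-fold), H4c4, 1 of several near-identical histone genes (3.59-fold), and Pex6, of peroxisome biogenesis (3.13-fold), followed. The other probe of Tnfaip8l3 gave 3.13 and that of Pex6 -1.07. Of these 12 inner genes 7 were 2-fold higher inside in the young pair and none 2-fold lower, against 7.55% and 4.69% of all genes of that pair.

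On the outer side of that tertile Aldh1a1 was followed by Gucy1a1, a subunit of the nitric oxide receptor guanylate cyclase (1.0 against 2.63, 2.63-fold), and Parvg, of focal adhesions (1.01 against 2.47, 2.46-fold). Dio2, the enzyme that activates thyroid hormone in astrocytes, stood at 0.995 and 2.09 (2.10-fold). S100a6, Inpp5b, Tnip1, Naa40 and Pex26 were higher outside by 2.10-fold to 2.26-fold, with other probes at -0.71 for Tnip1, -1.06 for Pex26 and 0.59 for Inpp5b. Phf3 (2.39-fold) and Rps6ka6 (2.25-fold) turned to 1.0 and 0.76 in the mean of their probes. None of these 12 was 2-fold higher outside in the young pair, against 4.69% of all genes of that pair.

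Genes above background on 1 senile array could only be bounded. On the inner side the largest bounds were those of Lmntd1 (at least 19.3-fold), Cntn6, a cell adhesion molecule of the contactin family (at least 17.3-fold, and 2.55 in the young pair), the adhesion receptor gene Adgrl2 (at least 16.5-fold), Gcnt4 (at least 15.6-fold) and Muc16 (at least 13-fold). On the outer side they were Scnn1g, a sodium channel subunit (at least 25.3-fold, and -2.66 in the young pair), Fgl1 (at least 18.8-fold), Procr, the protein C receptor of endothelium (at least 14.7-fold), Cyp2ab1 (at least 12.6-fold), Acsm5 (at least 11.2-fold) and Tpte (at least 10.8-fold). Olfr449, Defa-ps13, Olfr1446 and Vmn2r56 also had bounds between 11.1-fold and 20.5-fold, but belong to families with near-identical copies, so their signals are uncertain, and so is that of a probe named through its accession as Ndufb1 (at least 15.8-fold).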

How the data were processed

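The samples were 4 pools of laser-captured granule cell layer, 1 array each, and the senile inner and outer arrays were compared; 4 arrays limit the precision of every value. The deposited files hold the intensity of each spot as processed by Agilent Feature Extraction (version 10.7.3.1 per the file headers, 9.5.3 per the submitters' processing notes), with background subtracted. Control spots and spots with an outlier flag were left out, log2 of the processed signal was centred on each array's 75th percentile, spots of a probe were averaged, and the brightest probe stood for each gene name. A RefSeq table of build GRCm38.p6 gave the names of 26854 of the 39429 probes through their accession and of 4377 through their symbol; 8198 kept the name in the file. Probe positions are those of the files, in build mm9; exon and UTR positions were not analysed here. A call is a fold of at least 2. With 1 array per group no test was possible. The 4 arrays share 1 scan time, so none was used as a block.

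Named genes were the 15 largest differences in each direction among genes measured on both arrays, the 12 largest in the brightest tertile, the 8 largest bounds, and the leading members of each list. Some members are not reported here. The members and lists were chosen with earlier results of these data known. Alternatives were normexp background correction (offset 50), median and quantile scaling, other filters on dim genes, averaging of probes, outlier spots kept, grouping by RefSeq symbol and a 4-fold threshold. The authors deposited a value table in log2 units as well, centred on each probe's median in 100% of 27416 complete rows of 39483; its column medians were 0.00817 for senile inner, 0.0803 for senile outer, -0.0133 for young inner and -0.00835 for young outer. Its probe names were not borne out, with r = 0.0086 between its senile difference and that of the scanner signal across 28515 probes, which are not independent replicates, so no gene value was taken from it, and its scale beyond log2 and its order of rows stay unknown. Python 3.11.15, numpy 2.4.6, pandas 2.3.3, matplotlib 3.10.9, R 4.3.3 and limma 3.58.1 were used, and the calculations were tested on simulated data.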

Additional observations from a re-analysis of the deposited data

Results flagged for a closer look

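The following genes are among those that exceeded 2-fold in opposite directions in the senile and the young pair, each with 1 array per side. The differences between the pairs were not tested. Frrs1, a ferric reductase, was higher inside in the senile pair (3.93 log2) and lower there in the young pair (-2.87), and the peptidase gene Npepl1 gave 3.59 and -2.05. Efna1, an ephrin ligand, gave 1.62 and -5.45, and Bmp6, a BMP ligand, 1.35 and -1.37. The other genes were lower inside in the senile and higher inside in the young pair. The homeobox gene Msx2 gave -2.98 and 4.46, Sinhcaf -2.77 and 1.87, and Rfx8 -2.66 and 1.37. Sema3a, a secreted repellent, gave -1.50 and 1.90, and its second probe -1.84 and 2.54. Grm8, a metabotropic glutamate receptor, gave -1.25 and 1.10, S100a6 -1.18 and 1.08, and Slc7a10, an astrocyte amino acid transporter, -1.09 and 2.29. Mcm3, a replication licensing gene, gave -1.15 and 1.25, and its second, overlapping probe -1.19 and 1.25.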

How the results depend on the processing

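Normexp background correction lowered the count of genes 2-fold higher inside from 1202 to 315 and that outside from 1136 to 109, and a 4-fold threshold gave 272 and 197. Over the other alternatives the counts lay between 906 and 1389 inside and between 770 and 1588 outside, the upper values with the measured signal of dim genes kept and the lower ones with genes above background on both arrays. The interneuron median moved from 1.24 to 0.74 with normexp and that of the mossy cell list from 1.46 to 1.13; with dim genes kept, the mossy cell median was 1.01 and the neuropeptide median 0.030 in place of 0.42. The retinoic acid median turned from -0.20 to 0.014 with normexp and 0.018 with quantile scaling. In the mean of a gene's probes, Phf3 turned to 1.0, Rps6ka6 to 0.76 and Cdh7 to -1.02, since their dimmer probes differed the other way. Of 195 named genes at 2-fold, 88 fell under it with normexp, while 187 kept it with quantile scaling, 194 with median scaling and 166 with the mean of probes. The value table was not run as an alternative, because its probe names were not borne out. No paired analysis was possible because each group is 1 array. There is no replicate, so precision could be gauged only by signal over background, repeated spots and other probes of a gene. None of these measures the spread between mice, and differences in the dimmest tertile are the least certain.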

Other observations

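Genes of general cell function differed little between the sides of the senile layer. Of 36 genes of oxidative phosphorylation, the mitochondrial pathway that makes most ATP, none was 2-fold apart, the range was -0.44 to 0.49 and the median was -0.11, as it was over all genes (-0.11). Of 36 cytosolic ribosomal protein genes none was 2-fold apart either, with a range of -0.41 to 0.73 and a median of -0.10. Genes of cell senescence and its secreted factors had a median of -0.03 over 20 members. Cdkn2a, which encodes the cell cycle inhibitor p16, was dim on both sides at 0.0396 inside and 0.0258 outside (0.62), Il1b, a cytokine gene, gave 0.0417 and 0.0705 (-0.76), and Lmnb1, of the nuclear lamina, 0.683 and 0.682.

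Of the 1202 genes 2-fold higher inside in the senile pair, 286 were also 2-fold higher inside among the 1794 of the young pair, and 122 were 2-fold lower there. Of the 1136 higher outside, 146 were also among the 1115 of the young pair, and 205 went the opposite way by 2-fold. Over all genes of the young pair, 7.55% were 2-fold higher inside and 4.69% outside. The 205 opposite outer genes belong beside the 7.55% and the 146 shared ones beside the 4.69%, and the difference between these counts was not tested. In the brightest tertile, 18 of 84 inner genes were also 2-fold higher inside in the young pair and 0 were opposite, and of 20 outer genes 0 were also higher outside and 2 were opposite.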
